A study of Mus musculus with 2 samples.

Results

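Aqp8-high surface colonocytes are the cells of the colonic epithelium, here from inflamed mouse colon, that carry many transcripts of the water channel gene Aqp8. They were chosen by raw counts of UMIs, where a UMI stands for 1 captured transcript molecule. A barcode, the tag of 1 captured cell, had to hold at least 200 detected genes and under 20% of its UMIs in mitochondrial genes. It also had to hold at least 10 UMIs of the epithelial gene Epcam, at most 2 of the leukocyte gene Ptprc, at least 10 of Aqp8, under 20 of the goblet cell gene Muc2 and at most 4 of the division genes Mki67 and Top2a together. The rule found 1158 cells among 16208 barcodes, of which 14848 passed the general filters and 2958 passed the Epcam and Ptprc limits, called epithelial below. Library 1 gave 795 of these cells and library 2 gave 363. The libraries held 76622643 and 94204110 UMIs in 6597 and 9611 barcodes, against a target of 5000 cells each.

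The material was the middle part of the colon of 7-week-old mice, kept free of specific pathogens, that had been given 3% dextran sulfate sodium (DSS) for 6 days. DSS is a polysaccharide that injures the colon lining and is used to model colitis. The labels give neither strain nor sex, and all cells come from 1 group of 2 libraries, repeats 1 and 2, so that no effect of DSS can be read from them. Whether each repeat was a different mouse is not stated either. The p-values here gauge only how evenly differences between groups of cells repeated in these 2 libraries. Differences between the libraries themselves were set aside in the fit. The scatter that remains may be technical. The Aqp8-high cells were set against 3 other gates of the same epithelium: Aqp8-low cells (the same limits, but under 10 Aqp8 UMIs), goblet cells (at least 20 Muc2 UMIs) and dividing cells (over 4 Mki67 and Top2a UMIs). Goblet cells also had at most 4 Mki67 and Top2a UMIs. They could hold any number of Aqp8 UMIs, and dividing cells any number of Aqp8 and Muc2 UMIs. Pairs of values below are library 1 and then library 2.

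The colonic epithelium renews itself from stem cells at the crypt base. Daughter cells divide, stop dividing and mature while they move up to the surface, where absorptive colonocytes take up salt, water and short-chain fatty acids, face the bacteria of the lumen and are shed. The marker genes given for these cells are Aqp8, a water channel; Car4, a membrane-bound carbonic anhydrase of the apical surface; Saa1, an acute-phase apolipoprotein that epithelial cells also secrete; and Cyp2c55, a cytochrome P450 that oxidises fatty acids and drugs.

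The promoters of the 4 marker genes are printed because these genes identify the cells. Each holds the 250 bases before the gene's start and the first 50 after it, 5′ to 3′ on the gene's strand (RefSeq, GRCm38.p6). Capitals mark the letters TTTAT, the core bound by CDX homeodomain factors of the intestine, on either strand, and the TATA box letters TATAAA, which contain the reverse complement of TTTAT and so overlap it.

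Aqp8 (chr7:123462044-123462343, + strand): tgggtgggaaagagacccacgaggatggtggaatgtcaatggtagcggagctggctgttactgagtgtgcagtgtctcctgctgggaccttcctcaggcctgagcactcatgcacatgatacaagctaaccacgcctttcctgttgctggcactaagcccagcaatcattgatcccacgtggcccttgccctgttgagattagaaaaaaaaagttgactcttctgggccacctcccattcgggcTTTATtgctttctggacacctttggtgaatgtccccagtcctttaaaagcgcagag
Car4 (chr11:84957504-84957803, + strand): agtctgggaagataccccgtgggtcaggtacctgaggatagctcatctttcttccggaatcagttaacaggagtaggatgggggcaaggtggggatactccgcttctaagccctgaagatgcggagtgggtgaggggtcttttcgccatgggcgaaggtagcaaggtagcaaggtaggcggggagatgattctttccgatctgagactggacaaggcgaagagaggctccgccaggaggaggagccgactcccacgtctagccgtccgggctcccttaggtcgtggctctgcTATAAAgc
Saa1 (chr7:46742931-46743230, - strand): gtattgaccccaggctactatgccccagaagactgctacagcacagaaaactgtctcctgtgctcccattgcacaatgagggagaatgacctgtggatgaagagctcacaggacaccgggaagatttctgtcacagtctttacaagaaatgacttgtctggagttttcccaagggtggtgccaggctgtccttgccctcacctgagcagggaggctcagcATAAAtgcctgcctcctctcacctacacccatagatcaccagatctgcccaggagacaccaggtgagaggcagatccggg
Cyp2c55 (chr19:39006769-39007068, + strand): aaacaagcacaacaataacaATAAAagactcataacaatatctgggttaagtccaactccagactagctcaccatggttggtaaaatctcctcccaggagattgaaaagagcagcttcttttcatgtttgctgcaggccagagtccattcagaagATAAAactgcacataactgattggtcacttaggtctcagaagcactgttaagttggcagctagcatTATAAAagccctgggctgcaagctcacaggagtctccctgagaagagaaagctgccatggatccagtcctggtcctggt

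TTTAT or its reverse complement was found 1 time in the windows of Aqp8, Car4 and Saa1 and 3 times in that of Cyp2c55. Of 32851 RefSeq promoter windows of the same length, 40% held it on either strand. TATAAA was found in Car4 and Cyp2c55, and in 13.6% of all windows. It began at position -29 from the gene's start in Cyp2c55. In Car4 it began at position 43, after the start and so within the gene. These matches describe letters, not binding. In the GENCODE M21 annotation of GRCm38, Aqp8 (ENSMUSG00000030762) lies on chromosome 7 from 123462291 to 123468004, and Saa1 (ENSMUSG00000074115) on the same chromosome from 46740497 to 46742980. Car4 (ENSMUSG00000000805) lies on chromosome 11 from 84957786 to 84966044 and Cyp2c55 (ENSMUSG00000025002) on chromosome 19 from 39007019 to 39042693.

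The name surface colonocyte was set beside marker genes that the rule did not use. These genes were chosen with earlier results of these data known, so they are no independent check of the name. Position at the surface was not measured. Car4 reached 10 UMIs in 99.6% and 98.1% of the Aqp8-high cells and Saa1 in 98.9% and 96.4%. Krt20, a keratin of mature surface cells, did so in 89.8% and 93.9% of the Aqp8-high cells, against 69.99% and 73.4% of the Aqp8-low cells. Car4, Saa1 and Cyp2c55 together reached 10 UMIs in 100% and 100% of the Aqp8-high cells, against 77.7% and 67.6% of the Aqp8-low cells, so such counts are not particular to the Aqp8-high gate. Cyp2c55 was less even, with 10 UMIs or more in 70.7% and 19.3%. Aqp8 by rule, Car4 and Saa1 marked nearly every cell in both libraries, and Cyp2c55 marked most cells of library 1 and a minority in library 2.

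Markers of other cell types were low in the gate; their sums are given in CPM, which scales the UMIs of a gate to a common total. The 8 goblet markers outside the rule summed to 299.6 and 240.1 CPM in Aqp8-high cells, against 45140.4 and 56719 CPM in goblet cells. The 8 crypt stem and progenitor markers summed to 47.9 and 25.9 CPM, against 269.5 and 202 CPM in Aqp8-low cells. The 6 enteroendocrine markers, those of hormone cells, summed to 9.99 and 5.23 CPM, against 1129 and 288 CPM in Aqp8-low cells. Tuft cell markers reached 2.41 and 4.21 CPM, with Pou2f3 and Il25 at 0 in both libraries and Trpm5 at 0 in library 1. Fibroblast markers summed to 12.4 and 83.6 CPM, and the 4 haemoglobin genes were at 0 in library 1 and summed to 0.637 CPM in library 2. Sums of endothelial, smooth muscle and pericyte, mast cell, and T, NK and innate lymphoid markers lay between 3.7 and 60.6 CPM. Those of mononuclear phagocytes were 76.8 and 154 CPM and those of B and plasma cells 114 and 138 CPM, with Mzb1 at 0. The highest foreign sum was that of the 8 neutrophil markers, 687 and 1019 CPM in Aqp8-high cells, against 820.4 and 677 CPM in Aqp8-low cells, nearly all of it S100a8 and S100a9.

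RNA that had leaked from other cells was gauged in barcodes with at least 3 Ptprc UMIs and no Epcam UMI. Asking for no Epcam UMI can favour barcodes with little leaked epithelial RNA, so the levels there may be low estimates. Aqp8, which the rule itself made high in the gate, stood at 2347 and 1830.2 CPM in the Aqp8-high cells. It stood at 38.6 and 21.4 CPM in those leukocyte barcodes, of which 23.6% and 13.01% held an Aqp8 UMI. Car4 stood at 4316 and 3313 CPM in the Aqp8-high cells and at 98.5 and 49.98 CPM in those leukocyte barcodes, while Saa1 stood at 6055 and 4878 CPM in the Aqp8-high cells and at 139 and 75.9 CPM in the leukocyte barcodes. S100a8, at 353 and 574 CPM in the Aqp8-high cells, stood at 27161 and 21907 CPM in the leukocyte barcodes, and its UMIs were found in 92.5% and 98.6% of Aqp8-high cells at a median of 3 and 5 UMIs. Median UMIs were 13907 and 17430.0 in the Aqp8-high cells and 6313 and 5954 in the leukocyte barcodes. The libraries shared 18 barcode sequences, of which 0 lay in the gate in both. Scrublet, which scores likely doublets (2 cells under 1 barcode), placed 16 and 17 of the Aqp8-high cells among its highest scorers. It placed 11 of 683 and 41 of 500 Aqp8-low cells there. Of goblet cells it placed 5 of 85 and 16 of 59, and of dividing cells 14 of 181 and 30 of 292. All were kept, as the rule has no doublet step.

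Aqp8-high cells made up 45.6% of epithelial barcodes in library 1 (exact 95% binomial interval 43.2 to 48.0) and 29.9% in library 2 (27.3 to 32.6), which are 13.9% and 3.98% of all barcodes kept. The intervals cover counting error only. A fixed limit of 10 UMIs favours deep cells, so each epithelial cell was also thinned to 10000 UMIs, which leaves out shallower cells. The shares were then 35.7% and 21.8% of 1320 and 995 epithelial cells, and those of 1331 and 1005 epithelial cells with that depth before thinning were 42.2% and 29.2%. Library 1 held the larger share under each of these settings, with 1 library on each side and no test.

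No gap in the counts marked the Aqp8 limit. Aqp8 itself ran from 10 UMIs to 199 and 220.0 per cell, with medians of 31 and 30. Just inside the limit, the 71 and 46 cells with 10 to 12 Aqp8 UMIs held 3870.0 and 3285 CPM of Car4, and just outside, the 69 and 42 cells with 7 to 9 UMIs held 3127 and 2271 CPM. Saa1 stood at 4103 and 4400.2 CPM inside and 5069 and 2979 CPM outside, and Krt20 at 2283 and 2797 CPM inside and 2403 and 2655 CPM outside. In library 1 Saa1 and Krt20 were lower inside than outside, while in library 2 all 3 genes were higher inside, Krt20 by the least. Across the whole range, from cells with no Aqp8 UMI to those with 80 or more, Car4 stood at 1308 and 366 CPM in the lowest band and 4676 and 3366 CPM in the highest. The sodium-proton exchanger gene Slc9a3 stood at 216 and 187 CPM with no Aqp8 UMI, 538 and 699.7 CPM at 20 to 39 UMIs and 684 and 838 CPM at 80 or more. Fabp2, an intestinal fatty acid binding protein, stood at 377 and 492 CPM, 823 and 1286 CPM and 1742 and 1946 CPM in the same 3 bands. Other transcripts ran the other way. Aqp4, another water channel, stood at 1148 and 594 CPM, 231 and 119 CPM and 104 and 113 CPM in those bands, and Cftr, a chloride channel, at 87.3 and 62.3 CPM, 13.2 and 7.16 CPM and 5.62 and 7.28 CPM. Car1 stood at 3535 and 4704 CPM, 4194 and 7215 CPM and 3548 and 10914 CPM, and Guca2a at 3719.8 and 2906 CPM, 4169.7 and 5003 CPM and 4259.6 and 5210.0 CPM. Both were higher in the last band than in the first in library 2, by more than in library 1, where Car1 was nearly level. Depth differed between bands, with median UMIs of 19998 and 23254 in cells with no Aqp8 UMI, 8324 and 12264 at 10 to 12 UMIs and 23364 and 29766 at 80 or more. Band values are plain CPM, and as all cells of a band share a library they carry no test.

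**Figure D1:**
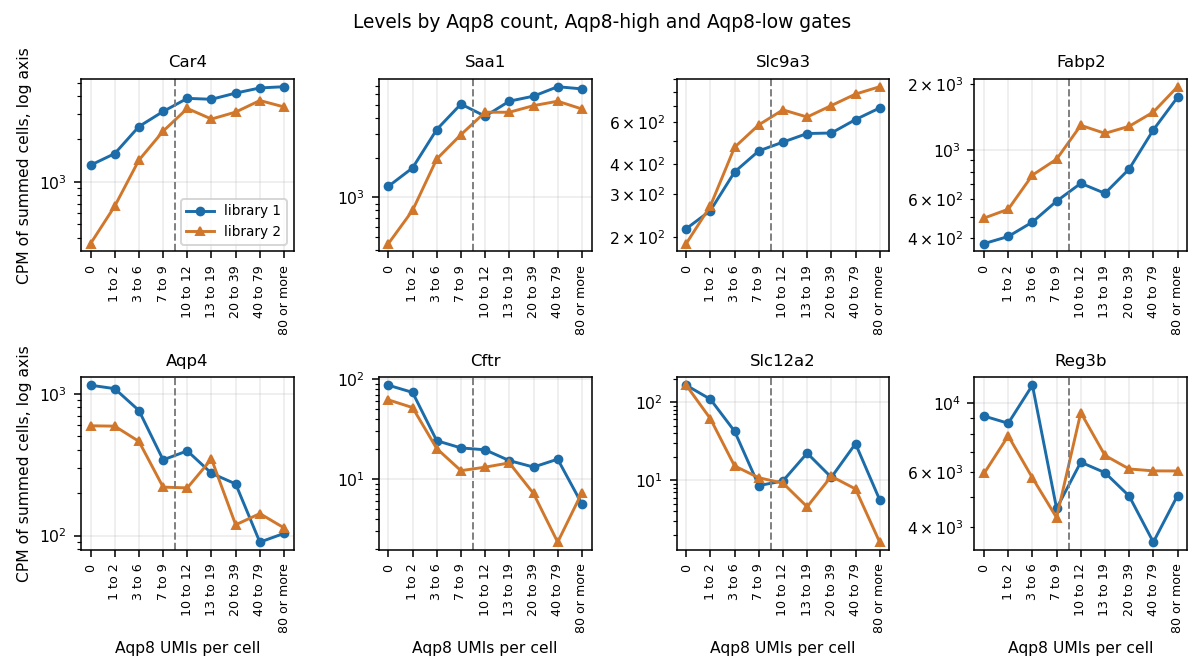
Level of 8 genes (CPM of the summed cells, log axis) in epithelial cells of the Aqp8-high and Aqp8-low gates, grouped by Aqp8 UMIs per cell (horizontal axis, low to high); lines are libraries 1 and 2, and the dashed line marks the limit of 10 Aqp8 UMIs. Car4, Saa1, Slc9a3 and Fabp2 are higher in the last band than in the first in both libraries, Aqp4, Cftr and Slc12a2 are lower, and Reg3b shows no steady trend.

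Among genes with a mean of at least 50 CPM in the higher gate, to which every largest rise or fall below is limited, the largest rises over Aqp8-low cells were those of Gm15998, Cpn1 and Cyp2d9, and the largest falls those of Insl5, Chgb and Gcg. Counts were summed per library and gate, and levels from here on are CPM after TMM scaling. Differences were tested by edgeR's quasi-likelihood test with Benjamini-Hochberg adjustment over 14778 genes and the genes of the rule. The 6 genes of the rule entered the fit but were left out of all counts and calls, since the gates were set on them in the same cells. At an adjusted p under 0.05, used throughout for rose, fell and passed, 3231 genes rose (21.9% of those tested) and 3546 fell (24%), so a share of 45.9% is the background for every list below. A change is a log2 difference, Aqp8-high minus the other gate, ± SE, and the values of each library alone are added where 1 of them differed from it by over 1.5 times.

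Slc15a1, the peptide transporter PEPT1, had 394 and 239 CPM in Aqp8-high cells, against 60.2 and 32.8 CPM in Aqp8-low cells, a change of 2.80 ± 0.24 (adjusted p = 5.58e-05). Selenop, a secreted selenium carrier, had 2209 and 1100.1 CPM in Aqp8-high cells, against 274 and 172 CPM in Aqp8-low cells, a change of 2.82 ± 0.28 (adjusted p = 9.11e-05). Cpn1, the catalytic subunit of carboxypeptidase N, had 96.5 and 101 CPM in Aqp8-high cells, against 8.93 and 11.6 CPM in Aqp8-low cells, a change of 3.28 ± 0.21 (adjusted p = 3.32e-05). In all 3 genes both libraries of the Aqp8-high gate lay above both of the Aqp8-low gate. The share of all genes tested whose gates lay apart in this way was not counted. Here and below such statements describe levels and are no further test. Rbp2, which carries retinol inside enterocytes, had 158 and 138 CPM in Aqp8-high cells, against 14.3 and 26.9 CPM in Aqp8-low cells, a change of 2.87 ± 0.29. Ada, which deaminates adenosine, had 61.8 and 107 CPM in Aqp8-high cells, against 13.01 and 15.5 CPM in Aqp8-low cells, a change of 2.53 ± 0.25. Creb3l3, a membrane-bound transcription factor of lipid metabolism, had 116 and 191 CPM in Aqp8-high cells, against 19.9 and 35.1 CPM in Aqp8-low cells, a change of 2.49 ± 0.24. Their groups did not overlap either. The 12 genes with the largest rise also held Cyp2d9 (2.91 ± 0.14), Ces2a (2.73 ± 0.23), Tgm3, a transglutaminase (2.55 ± 0.21), Bnip5 (2.72 ± 0.21), the long non-coding RNA 4732465J04Rik (2.50 ± 0.20) and Gm15998 (3.72 ± 0.26), which is annotated as antisense; no source used here says whether counting used strand.

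The 12 genes with the largest fall began with 5 of hormone cells. Chgb, a granule protein, had 3.18 and 2.52 CPM in Aqp8-high cells, against 359 and 110.4 CPM in Aqp8-low cells, a change of -6.28 ± 0.63, with -6.73 in library 1 alone and -5.25 in library 2 alone, and Pyy, which encodes the hormone peptide YY, had 7.42 and 2.18 CPM in Aqp8-high cells, against 582 and 103 CPM in Aqp8-low cells, a change of -6.02 ± 1.42, with -6.26 in library 1 alone and -5.33 in library 2 alone. Gcg (-6.07 ± 1.53, with -6.04 in library 1 alone and -5.16 in library 2 alone), Insl5 (-6.67 ± 1.95, with -7.19 in library 1 alone and -3.92 in library 2 alone) and Chga (-5.97 ± 0.44, with -6.26 in library 1 alone and -4.59 in library 2 alone) fell as well. Cells with at least 5 Chga and Chgb UMIs together numbered 0 and 0 in the Aqp8-high gate, against 17 and 4 in the Aqp8-low gate. Ccnd1, the next gene, and Ccnd2, the last of the 12, encode D-type cyclins of cell cycle entry. Ccnd1 had 20.9 and 19.8 CPM in Aqp8-high cells, against 146 and 109.5 CPM in Aqp8-low cells, a change of -2.65 ± 0.16 (adjusted p = 3.32e-05), and Ccnd2 had 35.6 and 31.9 CPM in Aqp8-high cells, against 159 and 193 CPM in Aqp8-low cells, a change of -2.36 ± 0.13. Both cyclins were lower in each Aqp8-high library than in either Aqp8-low library, although neither gate held dividing cells by the rule. Slc12a2, Csrp2 (-2.49 ± 0.20), the mitochondrial matrix protein gene C1qbp (-2.46 ± 0.18), the sulfotransferase Sult1a1 (-2.45 ± 0.22) and Ppp1r1b (-2.38 ± 0.20) stood between them.

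Scaling and cell make-up bear on all changes against Aqp8-low cells. TMM factors were 0.669 and 0.761 in Aqp8-high cells, against 0.959 and 0.965 in Aqp8-low cells, so that TMM scaling raised the CPM of the Aqp8-high cells more. With total UMIs in place of TMM the median change of all genes was -0.51 instead of -0.07, and 1393 genes rose and 6349 fell (17.99% of calls upward, against 47.7% with TMM). Aqp8-high cells also differed in signs of RNA quality: median mitochondrial shares were 8.55% and 5.92%, against 6.73% and 4.61% in Aqp8-low cells, and the nuclear RNA Malat1 had 56209 and 45721 CPM in Aqp8-high cells, against 21850.0 and 22937 CPM in Aqp8-low cells. Their part in the changes was not tested; with the mitochondrial limit at 10% 3180 genes rose and 3396 fell. In a condition added after the data were seen, every gate was held to cells with at least 10 Krt20 UMIs. Against Aqp8-low cells 1603 genes then rose and 1159 fell of 12406 tested (58.0% of calls upward). That fit shared its spread with a goblet gate cut to 24 and 22 cells and a dividing gate cut to 22 and 38 cells. Scrublet had marked 3 and 12 of these goblet cells and 10 and 11 of these dividing cells. The effect of these small gates on the calls under the Krt20 condition was not tested. Under this condition 29 of the changes named in this text no longer passed, with adjusted p between 0.0524 and 0.989: those of Aldoa, Atp1b1, Car1, Car2, Car8, Car9, Casp1, Cd74, Cldn2, Dpp4, Egln3, Gapdh, Gstm1, Guca2a, Id2, Kcne3, Kcnn4, Kcnq1, Ldha, Ly6a, Myc, Nox1, Nr1i2, Pkm, Slc12a2, Slc16a1, Slc5a8, Sult1b1 and Tnf. Among all changes named in this text, 23 no longer passed without the library as a block, with adjusted p between 0.0508 and 0.645: those of Atp1b1, Car1, Car2, Car4, Car13, Cd74, Ces2a, Cyp2c55, Gapdh, Gsdmc2, Gsdmc3, Gsdmc4, Gsta4, H2-Aa, Id2, Il33, Ldha, Ly6a, Ppargc1a, Slc16a1, Slc5a8, Sult1a1 and Tgm3.

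**Figure D2:**
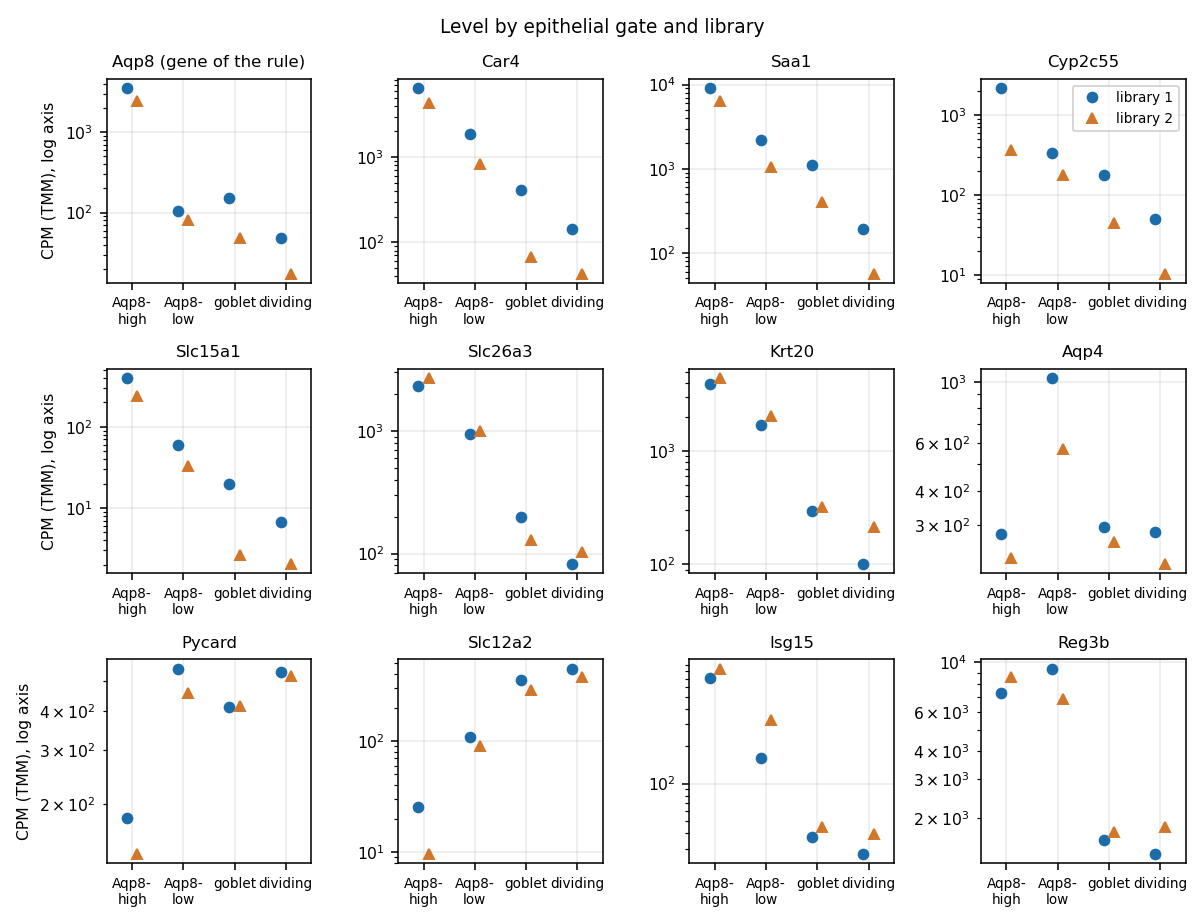
Level of 12 genes (CPM after TMM scaling, log axis) in the Aqp8-high, Aqp8-low, goblet and dividing gates, left to right; each point is 1 library (circle, library 1; triangle, library 2). Car4, Saa1, Slc15a1, Slc26a3 and Krt20 are highest in the Aqp8-high gate, Aqp4 and Pycard are higher in the Aqp8-low gate than in the Aqp8-high gate, and Slc12a2 is highest in dividing cells; Aqp8 is a gene of the rule.

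Genes of water and ion transport split between those that rose and those that fell. Of the list, 21 of 35 rose and 11 fell, with a median log2 difference of 0.80 (14 rose and 11 fell with total UMIs). On the absorptive side, Slc26a3, the apical chloride-bicarbonate exchanger, had 2318 and 2683 CPM in Aqp8-high cells, against 941 and 1001 CPM in Aqp8-low cells, a change of 1.36 ± 0.19 (adjusted p = 4.63e-04). Slc9a3, the sodium-proton exchanger NHE3, had 870.2 and 965 CPM in Aqp8-high cells, against 294 and 306 CPM in Aqp8-low cells, a change of 1.61 ± 0.21. Atp12a, the proton-potassium pump of the distal colon, had 134 and 175 CPM in Aqp8-high cells, against 29.9 and 48.05 CPM in Aqp8-low cells, a change of 2.01 ± 0.23. All of these libraries lay above those of the Aqp8-low gate. The exchanger Slc9a2 (1.53 ± 0.18), the NHE3 scaffold Slc9a3r1 (1.68 ± 0.16), the magnesium channel Trpm6 (1.48 ± 0.18), the dicarboxylate carrier Slc13a2 (1.48 ± 0.19), Clic5 (1.84 ± 0.18) and Clca4a (1.89 ± 0.25) rose too. For the epithelial sodium channel ENaC, the alpha subunit Scnn1a had 170.2 and 113 CPM in Aqp8-high cells, against 53.2 and 54.5 CPM in Aqp8-low cells, a change of 1.37 ± 0.14. Its partners Scnn1b and Scnn1g were nearly absent, with Scnn1b at 0.106 and 0.168 CPM in Aqp8-high cells, against 0.208 and 0 CPM in Aqp8-low cells, and did not pass the test. Nr3c2, the mineralocorticoid receptor, rose by 1.15 ± 0.15.

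The genes that fell include the machinery of chloride secretion. Cftr, the apical chloride channel, had 20.03 and 9.73 CPM in Aqp8-high cells, against 67.3 and 49.4 CPM in Aqp8-low cells, a change of -1.96 ± 0.17 (adjusted p = 5.34e-05). Slc12a2, the basolateral NKCC1 cotransporter that loads chloride, had 25.3 and 9.56 CPM in Aqp8-high cells, against 109 and 90.4 CPM in Aqp8-low cells, a change of -2.53 ± 0.23, with -2.10 in library 1 alone and -3.11 in library 2 alone. Kcne3 (-2.51 ± 0.25, with -2.30 in library 1 alone and -3.11 in library 2 alone), Kcnq1 (-2.01 ± 0.24) and Kcnn4 (-2.41 ± 0.26), basolateral potassium channel genes, fell as well. Under the Krt20 condition Cftr still fell, by 1.17 on the log2 scale, but Slc12a2, Kcnq1, Kcne3 and Kcnn4 no longer passed. Aqp4 had 279 and 228 CPM in Aqp8-high cells, against 1029 and 567 CPM in Aqp8-low cells, a change of -1.61 ± 0.16 (adjusted p = 8.25e-05), and it fell under the Krt20 condition too, by 1.71. Only 8.3% and 8.26% of Aqp8-high cells held 10 or more Aqp4 UMIs, against 49.3% and 34.4% of Aqp8-low cells. High Aqp4 was rare among the Aqp8-high cells. The basolateral sodium-bicarbonate cotransporter Slc4a4 fell by 1.40 ± 0.15. Uptake carriers of short-chain fatty acids changed little: Slc5a8 had 337 and 253 CPM in Aqp8-high cells, against 282 and 193 CPM in Aqp8-low cells, a change of 0.33 ± 0.11, and Slc16a1 had 192 and 203 CPM in Aqp8-high cells, against 152 and 155 CPM in Aqp8-low cells, a change of 0.36 ± 0.11. Both these, and the sodium pump subunit Atp1b1 (0.36 ± 0.11), turned negative with total UMIs, to between -0.07 and -0.10.

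Carbonic anhydrases, which interconvert carbon dioxide and bicarbonate, did not move together. Car4 had 6459 and 4359 CPM in Aqp8-high cells, against 1861 and 825 CPM in Aqp8-low cells, a change of 2.16 ± 0.36 (adjusted p = 0.0011, and 0.0900 without the library block). Its gates did not overlap. Car1, the abundant cytosolic form, had 6252 and 10822 CPM in Aqp8-high cells, against 3926 and 6168 CPM in Aqp8-low cells, a change of 0.74 ± 0.12, and here library 1 of the Aqp8-high gate and library 2 of the Aqp8-low gate nearly met. Car2, another cytosolic form, had 652 and 799 CPM in Aqp8-high cells, against 894 and 1062 CPM in Aqp8-low cells, a change of -0.43 ± 0.10. Car9 rose (0.62 ± 0.11), Car13 (-0.51 ± 0.14) and Car8 (-1.86 ± 0.29) fell, and Car12 did not pass the test. Under the Krt20 condition Car4 and Car13 alone among these 7 passed.

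Brush border and surface differentiation genes rose in most cases: 33 of 44 rose and 5 fell, with a median log2 difference of 1.05, beside -0.07 over all genes. Krt20 had 3935 and 4382 CPM in Aqp8-high cells, against 1708 and 2026 CPM in Aqp8-low cells, a change of 1.16 ± 0.21 (adjusted p = 0.00172). Alpi, intestinal alkaline phosphatase, had 93.7 and 138 CPM in Aqp8-high cells, against 25.1 and 34.6 CPM in Aqp8-low cells, a change of 1.95 ± 0.23. Cdhr2, a cadherin that links microvillus tips, had 1177 and 933 CPM in Aqp8-high cells, against 332 and 319.5 CPM in Aqp8-low cells, a change of 1.68 ± 0.14. No library of one gate reached into the other gate's range for these 3 genes. Its partners Cdhr5 (1.26 ± 0.13) and Myo7b (1.41 ± 0.11), the meprin proteases Mep1a (1.31 ± 0.17) and Mep1b (1.51 ± 0.18), the actin bundlers Espn (1.36 ± 0.20) and Vil1 (1.06 ± 0.12) and the surface mucins Muc3 (1.20 ± 0.19), Muc13 (1.29 ± 0.15) and Muc4 (1.63 ± 0.27, with 2.33 in library 1 alone and 0.97 in library 2 alone) rose as well. The 5 that fell included regulators. The peptide pair that acts on guanylate cyclase C moved apart, as Guca2a (guanylin) had 6588 and 6676 CPM in Aqp8-high cells, against 3848 and 3677 CPM in Aqp8-low cells, a change of 0.82 ± 0.12, while Guca2b (uroguanylin) had 54.7 and 69.6 CPM in Aqp8-high cells, against 92.4 and 118 CPM in Aqp8-low cells, a change of -0.76 ± 0.10. Under the Krt20 condition Guca2b still fell, but Guca2a no longer passed (0.50, adjusted p = 0.0992). Cdx1, a homeodomain factor of intestinal identity, fell to 80.7 and 69.1 CPM in Aqp8-high cells, against 166 and 134 CPM in Aqp8-low cells, and Ihh, a signal that mature colonocytes send to the stroma, fell by 1.39 ± 0.17; Hnf4g and Dpp4 were the other two. Of their relatives, Cdx2 did not pass at 159.9 and 185 CPM in Aqp8-high cells, against 142 and 163 CPM in Aqp8-low cells, and Hnf4a rose by 1.09 ± 0.10.

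Drug-, steroid- and lipid-metabolising genes rose in part: 20 of 39 rose and 9 fell, with a median log2 difference of 0.50 (13 rose and 14 fell with total UMIs). Abcb1a, the efflux pump P-glycoprotein, had 1784 and 484 CPM in Aqp8-high cells, against 334 and 161 CPM in Aqp8-low cells, a change of 2.06 ± 0.25 (adjusted p = 2.31e-04). Abcg2, an efflux pump for drugs and urate, had 661 and 545 CPM in Aqp8-high cells, against 161 and 161 CPM in Aqp8-low cells, a change of 1.90 ± 0.12. Cyp2c55 had 2160.4 and 361 CPM in Aqp8-high cells, against 332 and 178 CPM in Aqp8-low cells, a change of 1.82 ± 0.32 (adjusted p = 0.00158, and 0.102 without the library block). The Aqp8-high level of Cyp2c55 in library 1 was far above all others, and that in library 2 lay just above library 1 of the Aqp8-low gate. The change was 2.70 in library 1 alone and 1.12 in library 2 alone. The carboxylesterases Ces2a, Ces2c (1.95 ± 0.19) and Ces2e (1.31 ± 0.19), Cyp3a13 (1.71 ± 0.14), Cyp2d34 (1.69 ± 0.14), the epoxide hydrolase Ephx2 (1.52 ± 0.15), the sulfotransferase Sult1b1 (1.03 ± 0.14) and the xenobiotic receptor Nr1i2 (0.80 ± 0.15) rose. Of the glutathione transferases, Gstm1 had 17.6 and 10.2 CPM in Aqp8-high cells, against 63.5 and 45.9 CPM in Aqp8-low cells, a change of -1.97 ± 0.13, and Gsta4 had 9.22 and 20.3 CPM in Aqp8-high cells, against 23.8 and 47.96 CPM in Aqp8-low cells, a change of -1.31 ± 0.15. Sult1a1 also fell, so that 2 sulfotransferases went in opposite directions. Under the Krt20 condition Gsta4 and Sult1a1 still fell and Gstm1 did not pass.

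Among defence genes, 12 of 26 rose and 1 fell, with a median log2 difference of 0.55 (8 rose and 6 fell with total UMIs). Saa1 had 9062 and 6419 CPM in Aqp8-high cells, against 2189.7 and 1052 CPM in Aqp8-low cells, a change of 2.37 ± 0.26 (adjusted p = 1.24e-04), and its near-identical neighbour Saa2 had 183 and 149 CPM in Aqp8-high cells, against 45.3 and 23.1 CPM in Aqp8-low cells, a change of 2.36 ± 0.24. Lypd8, a surface protein that binds flagellated bacteria, had 36478 and 36851 CPM in Aqp8-high cells, against 14598 and 15628 CPM in Aqp8-low cells, a change of 1.28 ± 0.13. Each of these libraries lay above both Aqp8-low libraries. Duox2, the dual oxidase, had 909 and 521 CPM in Aqp8-high cells, against 284 and 234 CPM in Aqp8-low cells (1.43 ± 0.18), with its maturation factor Duoxa2 changing by 1.47 ± 0.23 and the nitric oxide synthase Nos2 by 1.76 ± 0.27, with 2.47 in library 1 alone and 1.12 in library 2 alone. Nox1, the crypt oxidase, had 2.33 and 1.34 CPM in Aqp8-high cells, against 8.51 and 7.68 CPM in Aqp8-low cells, a change of -2.08 ± 0.26, but under the Krt20 condition it changed by -0.28 and no longer passed (adjusted p = 0.692). The antibacterial lectins did not pass, as Reg3b had 7289 and 8591 CPM in Aqp8-high cells, against 9375 and 6833 CPM in Aqp8-low cells and Reg3g had 1629 and 1834 CPM in Aqp8-high cells, against 2002 and 1039 CPM in Aqp8-low cells (adjusted p = 0.878 and 0.497). Dmbt1, at 3820.5 and 2201 CPM in Aqp8-high cells, against 3840.2 and 2145 CPM in Aqp8-low cells, did not pass, nor did Pigr, the carrier of secretory IgA, at 1914 and 794 CPM in Aqp8-high cells, against 1934 and 1013 CPM in Aqp8-low cells. For these 4 genes the ranges of the gates overlapped.

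Reg3b was carried by few cells at very high counts. Within the Aqp8-high gate its median was 2 and 3 UMIs per cell, its 90th percentile 127 and 419 and its maximum 5661 and 3923. The 10% of cells with the most held 89.7% and 67.1% of all Reg3b UMIs in the gate, and for Car4 the same share of cells held 25.5% and 26.1%. Reg3g was similar, with 88.2% and 68.3% in its 10% of highest cells. Cells with at least 100 Reg3b UMIs made up 11.7% and 27.3% of Aqp8-high cells, against 21.8% and 24.2% of Aqp8-low cells. Ido1, which breaks down tryptophan, was also uneven, with 47.2% and 60.1% in its 10% of highest cells. Selenop was spread widely, with a UMI in 99.9% and 98.6% of Aqp8-high cells, against 34.8% and 34.9% of the leukocyte barcodes with no Epcam UMI. Slc15a1 had a UMI in 91.4% and 89.3% of Aqp8-high cells, against 2.7% and 1.95% of those leukocyte barcodes.

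Interferon-induced and antigen presentation genes mostly rose: 28 of 34 rose and 0 fell, with a median log2 difference of 0.95. Isg15, a ubiquitin-like protein induced by interferon, had 713 and 842 CPM in Aqp8-high cells, against 159.9 and 323 CPM in Aqp8-low cells, a change of 1.76 ± 0.17 (adjusted p = 8.44e-05). Irf7, which amplifies interferon responses, had 596 and 569 CPM in Aqp8-high cells, against 129 and 214 CPM in Aqp8-low cells, a change of 1.81 ± 0.18. H2-K1, a class I MHC heavy chain, had 5241 and 3468 CPM in Aqp8-high cells, against 1723 and 1806 CPM in Aqp8-low cells, a change of 1.27 ± 0.16, and its light chain B2m had 6734 and 4352 CPM in Aqp8-high cells, against 2266 and 2399.6 CPM in Aqp8-low cells, a change of 1.22 ± 0.17. The gates did not overlap for these 4 genes. Of MHC class II, which presents extracellular antigen, H2-Aa had 1633 and 539.8 CPM in Aqp8-high cells, against 525 and 284 CPM in Aqp8-low cells, a change of 1.30 ± 0.18, and the invariant chain Cd74 had 4118 and 1639 CPM in Aqp8-high cells, against 1804 and 1259 CPM in Aqp8-low cells, a change of 0.82 ± 0.20. Class II levels in the gate were higher in library 1 than in library 2. The class II transactivator Ciita, at 52.5 and 12.4 CPM in Aqp8-high cells, against 23.2 and 13.8 CPM in Aqp8-low cells, did not pass, and the chemokines Cxcl9 and Cxcl10 did not either. On the plain scale the gate held 2752 and 1246 CPM of Cd74, against 2777 and 4400.4 CPM in leukocyte barcodes with no Epcam UMI; the part of free RNA in the Cd74 values was not tested. In this list 20 genes rose and 0 fell with total UMIs, and 21 rose and 0 fell under the Krt20 condition.

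Hypoxia-response and glycolysis genes also moved in 1 direction where they passed: 23 of 26 rose and 0 fell, with a median log2 difference of 0.79. Vegfa, a vascular growth factor, had 194 and 117 CPM in Aqp8-high cells, against 57.7 and 52.4 CPM in Aqp8-low cells, a change of 1.47 ± 0.15 (adjusted p = 1.06e-04). Bnip3, which marks mitochondria for removal, had 195 and 248 CPM in Aqp8-high cells, against 81.3 and 109.7 CPM in Aqp8-low cells, a change of 1.22 ± 0.11, and the glucose transporter Slc2a1 had 380.2 and 308 CPM in Aqp8-high cells, against 157 and 165 CPM in Aqp8-low cells, a change of 1.10 ± 0.19. The gates did not overlap for these genes. Ndrg1 (1.32 ± 0.26), Adm (1.55 ± 0.32, with 2.20 in library 1 alone and 0.85 in library 2 alone), Egln3 (1.08 ± 0.24) and Epas1, which encodes HIF-2alpha (1.10 ± 0.12), rose by similar amounts. The glycolysis enzymes Ldha (0.74 ± 0.11), Pkm (0.90 ± 0.17), Gapdh (0.52 ± 0.12) and Aldoa (0.40 ± 0.11) rose too, and Hif1a did not pass at 501 and 426 CPM in Aqp8-high cells, against 509 and 411 CPM in Aqp8-low cells. With total UMIs 14 of the list rose and 1 fell, Aldoa turned to -0.04, and under the Krt20 condition 11 rose and 0 fell, without these 4 enzymes. Of the nuclear genes of the respiratory chain, 3 of 15 rose and 1 fell, with a median log2 difference of 0.12 (0 rose and 10 fell with total UMIs); Ndufa4, which sits at complex IV, was the 1 that fell with TMM, at 147 and 141 CPM in Aqp8-high cells, against 353 and 499 CPM in Aqp8-low cells (-1.54 ± 0.14).

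Fatty acid genes did not move together. Of the list, 8 of 24 rose and 5 fell, with a median log2 difference of 0.23 (5 rose and 8 fell with total UMIs). Fabp2 had 1598 and 1900.3 CPM in Aqp8-high cells, against 443 and 610.1 CPM in Aqp8-low cells, a change of 1.73 ± 0.19, and the lipid droplet gene Plin2 changed by 1.16 ± 0.19. Pdk4, which inhibits pyruvate dehydrogenase and so spares glucose, had 48.3 and 11.7 CPM in Aqp8-high cells, against 3.53 and 4.39 CPM in Aqp8-low cells, a change of 2.80 ± 0.48, with 3.70 in library 1 alone and 1.47 in library 2 alone. The gates did not overlap for Fabp2 and Pdk4, and Pdk4 was highest in library 1 of the Aqp8-high gate. Echs1 (-0.78 ± 0.10) and Acaa2 (-0.62 ± 0.10), mitochondrial enzymes, and the regulators Ppara (-1.20 ± 0.31) and Ppargc1a (-0.62 ± 0.16) fell. Cpt1a, which admits fatty acids to mitochondria, did not pass at 160.4 and 137 CPM in Aqp8-high cells, against 132 and 148 CPM in Aqp8-low cells, nor did Acadm at 183 and 189.8 CPM in Aqp8-high cells, against 160.4 and 167 CPM in Aqp8-low cells.

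In the list of cell death and inflammasome genes, 15 of 28 rose and 6 fell, with a median log2 difference of 0.51 (9 rose and 9 fell with total UMIs). Zbp1, a nucleic acid sensor that can start necroptosis, had 669 and 621 CPM in Aqp8-high cells, against 240.5 and 289.9 CPM in Aqp8-low cells, a change of 1.29 ± 0.12 (adjusted p = 7.01e-05), and the kinase Ripk3 had 206 and 154 CPM in Aqp8-high cells, against 84.7 and 73.04 CPM in Aqp8-low cells, a change of 1.19 ± 0.16. Casp4, which senses lipopolysaccharide (the mouse caspase-11), had 215 and 121 CPM in Aqp8-high cells, against 82.6 and 66.96 CPM in Aqp8-low cells, a change of 1.14 ± 0.16. All 3 were higher in each Aqp8-high library than in either Aqp8-low one. Gsdmd, the pore protein that caspases cut, changed by 0.81 ± 0.12 and Casp1 by 0.54 ± 0.10. The inflammasome sensor genes Naip1 and Naip2 changed by 1.23 ± 0.14 and 0.78 ± 0.10. Pycard, the ASC adaptor that links sensors to Casp1, went the other way with 180.3 and 138 CPM in Aqp8-high cells, against 549.5 and 458 CPM in Aqp8-low cells, a change of -1.67 ± 0.13 (adjusted p = 3.97e-05), and did so under the Krt20 condition too, falling by 1.58. The gasdermin C genes fell as well, with Gsdmc4 at 204 and 24.1 CPM in Aqp8-high cells, against 352 and 44.1 CPM in Aqp8-low cells (-0.80 ± 0.19) and Gsdmc2 at 38.6 and 7.21 CPM in Aqp8-high cells, against 94.3 and 25.2 CPM in Aqp8-low cells (-1.46 ± 0.21). Between libraries Gsdmc4 differed far more than between gates. Mlkl, Nlrp6 and Il18 did not pass; Il18 had 211 and 136 CPM in Aqp8-high cells, against 249 and 150.0 CPM in Aqp8-low cells.

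Wound-associated and fetal-like repair genes showed no common direction: 10 of 36 rose and 8 fell, with a median log2 difference of 0.05 (5 rose and 15 fell with total UMIs). The 10 that rose include the cornified envelope gene Sprr2a1 (1.70 ± 0.20), the laminin chain Lamb3 (1.31 ± 0.26) and the integrin Itgb6 (1.10 ± 0.11). Ly6a (Sca-1), a marker of regenerating epithelium, had 3845 and 4424 CPM in Aqp8-high cells, against 2540.0 and 3175 CPM in Aqp8-low cells, a change of 0.54 ± 0.16, while Ly6g, at 774 and 1157 CPM in Aqp8-high cells, against 767 and 848 CPM in Aqp8-low cells, did not pass. Clu, a marker of revival stem cells, was at 0.318 and 1.68 CPM in Aqp8-high cells, against 4.71 and 3.72 CPM in Aqp8-low cells (-2.30 ± 0.54, with -3.24 in library 1 alone and -0.97 in library 2 alone), and Il33 at 0.954 and 2.01 CPM in Aqp8-high cells, against 6.85 and 8.28 CPM in Aqp8-low cells (-2.55 ± 0.81, with -2.61 in library 1 alone and -1.84 in library 2 alone), low levels in both gates. The Clu values rest on 3 and 10 UMIs in all Aqp8-high cells, against 68 and 44 UMIs in Aqp8-low cells, so the size of its fall is uncertain. The growth factors Areg, Ereg and Hbegf did not pass; Areg had 228 and 295 CPM in Aqp8-high cells, against 261 and 385 CPM in Aqp8-low cells. Junction genes mostly rose: 17 of 24 rose and 3 fell, with a median log2 difference of 0.71. Cldn23, a claudin of the mature surface, had 211 and 114 CPM in Aqp8-high cells, against 55.2 and 53.9 CPM in Aqp8-low cells, a change of 1.53 ± 0.18, and occludin (Ocln) had 110.5 and 76.98 CPM in Aqp8-high cells, against 47.5 and 43.4 CPM in Aqp8-low cells, a change of 1.04 ± 0.13. The 3 that fell were claudins, with the pore-forming Cldn2 at 7.21 and 2.35 CPM in Aqp8-high cells, against 26.02 and 27.1 CPM in Aqp8-low cells (-2.42 ± 0.27, with -1.82 in library 1 alone and -3.32 in library 2 alone), Cldn15 changing by -1.92 ± 0.13 and Cldn8 by -1.53 in library 1 alone and -0.37 in library 2 alone; under the Krt20 condition Cldn2 did not pass and the other two did. Of cytokines and chemokines, 5 of 20 rose and 4 fell, with a median log2 difference of 0.09 (2 rose and 7 fell with total UMIs). Il15, which sustains intraepithelial lymphocytes, had 37.7 and 14.4 CPM in Aqp8-high cells, against 8.31 and 6.67 CPM in Aqp8-low cells, a change of 1.73 ± 0.28, Tnf had 59.8 and 29.3 CPM in Aqp8-high cells, against 21.5 and 26.3 CPM in Aqp8-low cells, a change of 0.91 ± 0.28, with 1.47 in library 1 alone and 0.25 in library 2 alone, and the neutrophil chemokine Cxcl5 had 12.1 and 23.5 CPM in Aqp8-high cells, against 43.5 and 36.7 CPM in Aqp8-low cells, a change of -1.24 ± 0.24, with -1.83 in library 1 alone and -0.54 in library 2 alone.

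Crypt genes were lower in Aqp8-high cells: 2 of 26 rose and 17 fell, with a median log2 difference of -1.35. Sox9, a transcription factor of crypt progenitors, had 18.7 and 8.55 CPM in Aqp8-high cells, against 72.95 and 37.6 CPM in Aqp8-low cells, a change of -2.01 ± 0.13 (adjusted p = 3.34e-05). Hes1, a Notch target of absorptive progenitors, had 27.3 and 14.8 CPM in Aqp8-high cells, against 78.3 and 60.1 CPM in Aqp8-low cells, a change of -1.71 ± 0.20. The Wnt target Myc had 2.76 and 2.52 CPM in Aqp8-high cells, against 7.27 and 9.29 CPM in Aqp8-low cells, a change of -1.63 ± 0.24. All Aqp8-high libraries lay below all Aqp8-low libraries for these 3. Lgr5, the crypt stem cell receptor, had 3 and 1 UMIs in all Aqp8-high cells, against 80 and 19 UMIs in Aqp8-low cells, too few for a fold. Prom1 (0.99 ± 0.11) and Id2 (0.48 ± 0.12) rose. Under the Krt20 condition 1 of 22 crypt genes rose and 5 fell, and the 5 were Ccnd1, Hes1, Sox9, Jag1 and Ephb2. Immediate-early and heat shock genes, which respond to tissue dissociation, were mixed: 6 of 19 rose and 5 fell, with a median log2 difference of 0.17 (2 rose and 9 fell with total UMIs), with Jun at 1553 and 1196 CPM in Aqp8-high cells, against 718 and 614 CPM in Aqp8-low cells (1.04 ± 0.13) and Hspa8 at 283 and 345 CPM in Aqp8-high cells, against 501 and 543 CPM in Aqp8-low cells (-0.74 ± 0.11). Their part in the other results was not tested.

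**Figure D3:**
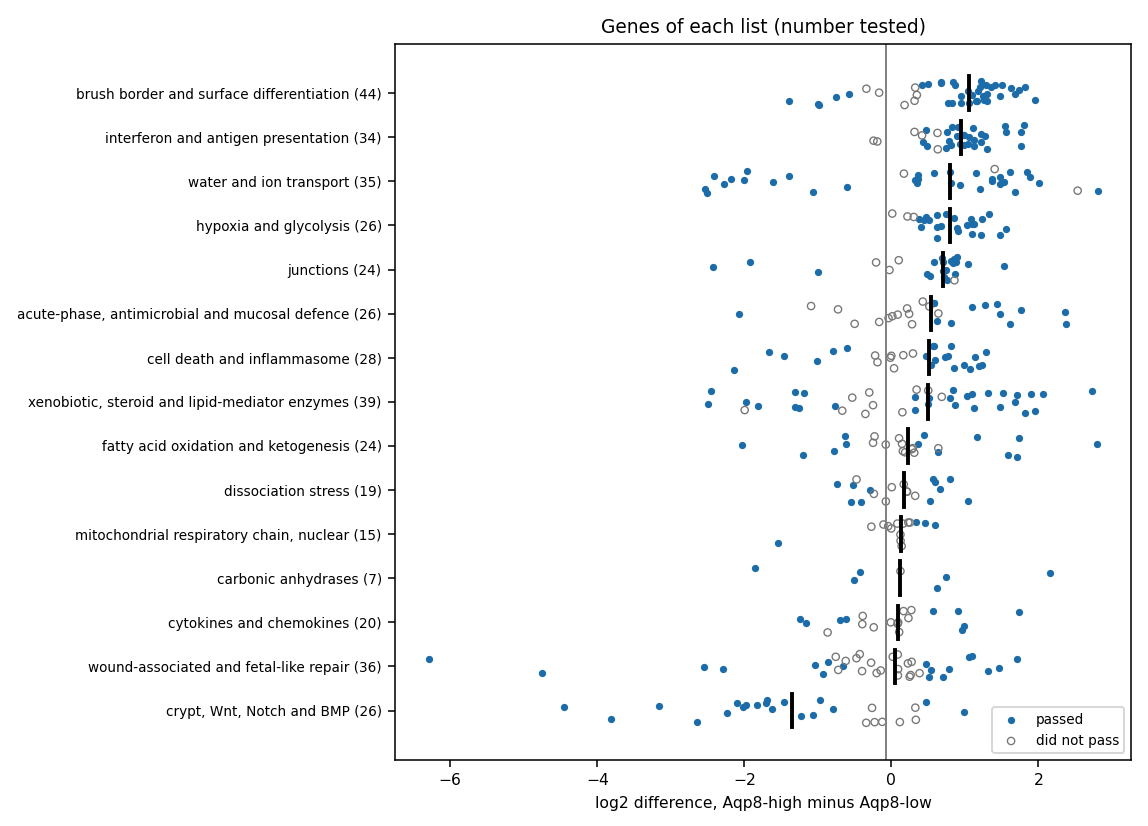
Log2 difference between Aqp8-high and Aqp8-low cells (horizontal axis) for every tested gene of 15 lists (rows); filled points passed edgeR's adjusted p under 0.05, open points did not, the vertical bar in each row is the list's median and the grey line the median of all genes, -0.07. Interferon and antigen presentation and hypoxia and glycolysis genes lie to the right with 0 falling, crypt genes lie to the left, and transport genes lie on both sides; the 3 leftmost points, Mmp7, Msln and Ascl2, are of transcripts nearly absent from Aqp8-high cells.

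More genes passed against goblet cells and dividing cells. Of 14778 genes, 4166 rose (28.2%) and 4454 fell (30.1%) against goblet cells, and 5253 rose (35.5%) and 5653 fell (38.3%) against dividing cells, so that 58.3% and 73.8% passed in all. The largest rise against goblet cells was that of Cpn1 (5.56 ± 0.35, with 5.05 in library 1 alone and 6.14 in library 2 alone), followed by Mal, a membrane raft protein, with 407 and 492 CPM in Aqp8-high cells, against 8.82 and 13.4 CPM in goblet cells (5.36 ± 0.15). Ly6d, a surface protein of the Ly6 family, came next at 31.5 and 80.8 CPM in Aqp8-high cells, against 1.02 and 1.74 CPM in goblet cells (5.28 ± 0.73). The lowest gene was Ano7, with 2 and 0 UMIs in Aqp8-high cells, against 171 and 98 UMIs in goblet cells. The secretory genes Clca1 (-7.74 ± 0.45, with -6.94 in library 1 alone and -8.51 in library 2 alone), Fcgbp (-7.72 ± 0.36), Agr2 (-7.10 ± 0.18) and Retnlb (-7.09 ± 0.20) were among the lowest. Aqp4, lower in Aqp8-high than in Aqp8-low cells, had 279 and 228 CPM in Aqp8-high cells, against 297 and 259.9 CPM in goblet cells, and did not pass. Reg3b, which did not pass against Aqp8-low cells, had 7289 and 8591 CPM in Aqp8-high cells, against 1594 and 1743 CPM in goblet cells, a change of 2.25 ± 0.19. Hypoxia and glycolysis genes rose in 26 of 26 against goblet cells, and brush border genes in 34 of 44.

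Against dividing cells the largest rises were those of Atp12a (6.98 ± 0.34), Saa2 (6.40 ± 0.31, with 5.60 in library 1 alone and 7.21 in library 2 alone), Creb3l3 (6.37 ± 0.33, with 5.71 in library 1 alone and 6.68 in library 2 alone), Cyp2d9 (6.36 ± 0.18), Slc15a1 (6.30 ± 0.31) and Clca4a (6.26 ± 0.30). Nt5e (CD73), which makes adenosine outside the cell, had 315 and 229 CPM in Aqp8-high cells, against 7.83 and 2.44 CPM in dividing cells, a change of 5.83 ± 0.37, with 5.29 in library 1 alone and 6.48 in library 2 alone. Apob, the lipoprotein scaffold, had 407 and 369 CPM in Aqp8-high cells, against 8.3 and 5.33 CPM in dividing cells, a change of 5.86 ± 0.29. Both were far lower in each library of the dividing gate than in either library of the Aqp8-high gate. The lowest genes were those of mitosis and DNA replication, such as Kif15 (-6.32 ± 0.27, with -6.27 in library 1 alone and -5.63 in library 2 alone), Hmmr (-6.28 ± 0.26, with -6.73 in library 1 alone and -5.47 in library 2 alone) and Hells (-5.93 ± 0.20), which the choice of dividing cells brings with it. Crypt genes fell in 20 of 26 against dividing cells. The 3 comparisons share the Aqp8-high libraries, so their calls are not independent of each other. With total UMIs the median change of all genes was -0.73 against goblet cells and -0.96 against dividing cells, in place of -0.07 and -0.10, and 24.8% and 24.6% of calls were upward, against 48.3% and 48.2% with TMM. Median depth was 13907 and 17430 UMIs in Aqp8-high cells, against 29412 and 31365 in goblet cells and 47361 and 41949 in dividing cells.

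By level, the most abundant transcripts of the gate outside mitochondrial and ribosomal protein genes were Malat1, the ribosomal RNA entry Rn18s-rs5 and Lypd8, followed by Actb and Plac8. Lypd8 stood at 36478 and 36851 CPM and Plac8 at 11991 and 14317 CPM. The 25 highest also held Krt8, Fth1, Lgals4, Car1, Muc3, Reg3b, Saa1, Ceacam1, Epcam, Guca2a, Prdx6, Cldn7, B2m and Phgr1. The assay counts 3′ ends, 1 UMI per captured molecule, so these levels were not divided by gene length.

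The 2 libraries differed within the gate in a limited set of genes. Of 2019 genes with at least 100 CPM, 30 were at least 2 times as high in library 1 and 7 at least 2 times as high in library 2. With 1 library on each side these differences have no test. The largest was Sycn, a zymogen granule protein, with 199.6 and 23.3 CPM; the Aqp8-low gate held 71.5 and 13.8 CPM. Gsdmc4 had 204 and 24.1 CPM in Aqp8-high cells and 352 and 44.1 CPM in Aqp8-low cells, the same direction in both gates. The metallothionein Mt2 had 587 and 75.3 CPM in Aqp8-high cells, against 84.7 and 97.2 CPM in Aqp8-low cells, so that its excess in library 1 was seen in the Aqp8-high gate and not in the other. Eno3, a muscle-type enolase, had 265 and 39.2 CPM in Aqp8-high cells, against 30.1 and 17.3 CPM in Aqp8-low cells. Library 2 was higher in the bile acid transporter Slc10a2, with 64.4 and 247 CPM in Aqp8-high cells, against 73.6 and 142 CPM in Aqp8-low cells, and in Tgm2, Sh3kbp1, Retnlg and Sgk1. Eno3 changed by 2.30 ± 0.39 between gates, with 3.13 in library 1 alone and 1.27 in library 2 alone.

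**Figure D4:**
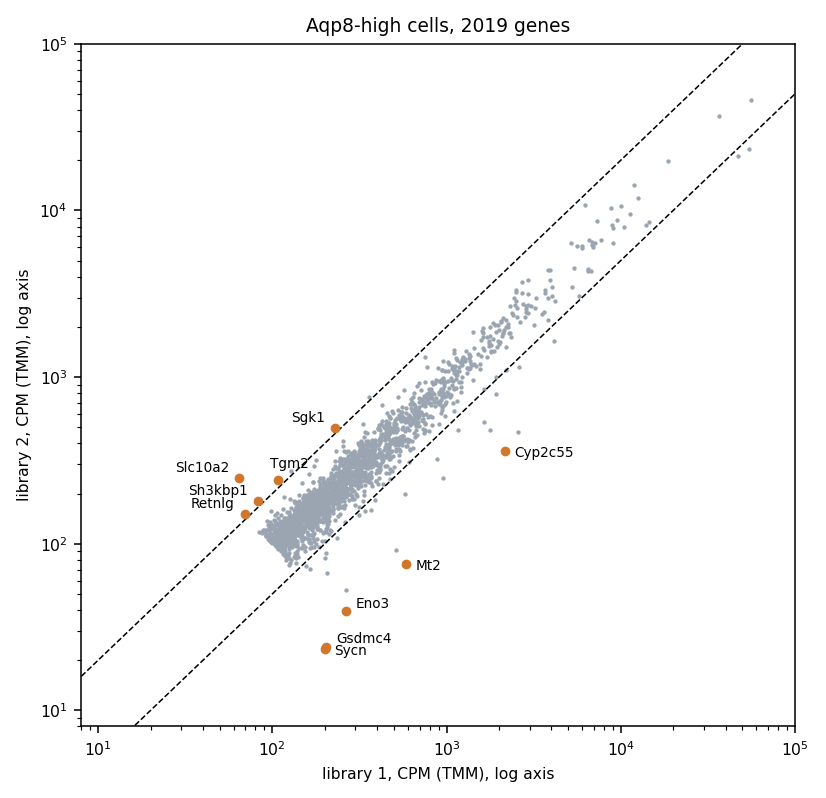
Level of each of 2019 genes (CPM after TMM scaling, log axes) in the Aqp8-high cells of library 1 (horizontal) and library 2 (vertical); dashed lines mark a ratio of 2 in either direction, and the 5 genes with the highest and the 5 with the lowest ratio are named. Most genes lie between the lines.

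Clustering of the 1158 cells gave 7 subclusters, which are described and not tested, as the same genes defined them. Subcluster 1 (369 and 6 cells) came almost wholly from library 1 and was led by metallothioneins, with Mt2 at 896 CPM, against 114 CPM in the other Aqp8-high cells, together with Mt1, Ubd and Eno3. It also held the highest Aqp8, 3587 CPM in its library 1 cells. Subcluster 5 (103 and 0 cells) held library 1 cells alone and was led by Ccl20, Tbc1d9 and Fam13a, with the NF-kappaB inhibitor Nfkbia at 692 CPM, against 237 CPM in the other Aqp8-high cells. Subcluster 2 (54 and 195 cells) held most of library 2 and was led by Saa3 at 486 CPM, against 106 CPM in the other Aqp8-high cells. S100a11, Myl7, the mast cell marker Mcpt1, Slpi and Cxcl2 followed. S100a8 stood at 798 and 725 CPM in subcluster 2, against 247 and 446 CPM in subcluster 4 and 2229 and 237 CPM in subcluster 7. The part of leaked leukocyte RNA in subcluster 2 was not tested. Subcluster 6 (21 and 65 cells) was led by Ly6d at 248 CPM, against 17.1 CPM in the other Aqp8-high cells, and by Tgm2, Atp12a and the hair keratin Krt36. A subcluster found in 1 library may be that library and not a kind of cell.

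Subclusters 3 and 4 were found in both libraries, as were 2, 6 and 7, all in unequal shares. Subcluster 4 (58 and 61 cells) was led by Clca3b, Adgrf1, Ada, Cyp2d9, Tat and Plet1, with Plet1 at 1861 CPM, against 565 CPM in the other Aqp8-high cells. Its cells also held Duox2 at 1305 and 1251 CPM, against 148 and 126 CPM in subcluster 3. Subcluster 3 (177 and 34 cells) was led by Hsd11b2, which inactivates glucocorticoids, at 325 CPM, against 66.9 CPM in the other Aqp8-high cells, and by Aqp4, Il18 and Id3. Its Slc26a3 stood at 2058 and 2364 CPM, against 1009.8 and 1293 CPM in subcluster 4. Aqp4 in these cells reached 343 and 635 CPM, against 36.4 and 12.1 CPM in subcluster 4, so that part of the gate carried both water channels. Subcluster 3 was also the deeper one, with a median of 25044 UMIs and 5.49% mitochondrial UMIs, against 10837 UMIs and 10.6% in subcluster 4. Subcluster 7 (13 and 2 cells) was led by Slc12a2, Ptma and Csrp2 and had a median of 40661 UMIs. Aqp4 stood at 704 and 986 CPM in subcluster 7, above subcluster 3 in both libraries, and Aqp8 at 738 and 676 CPM. S100a8 stood at 2229 and 237 CPM there. The part of doublets in subcluster 7 was not tested.

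**Figure D5:**
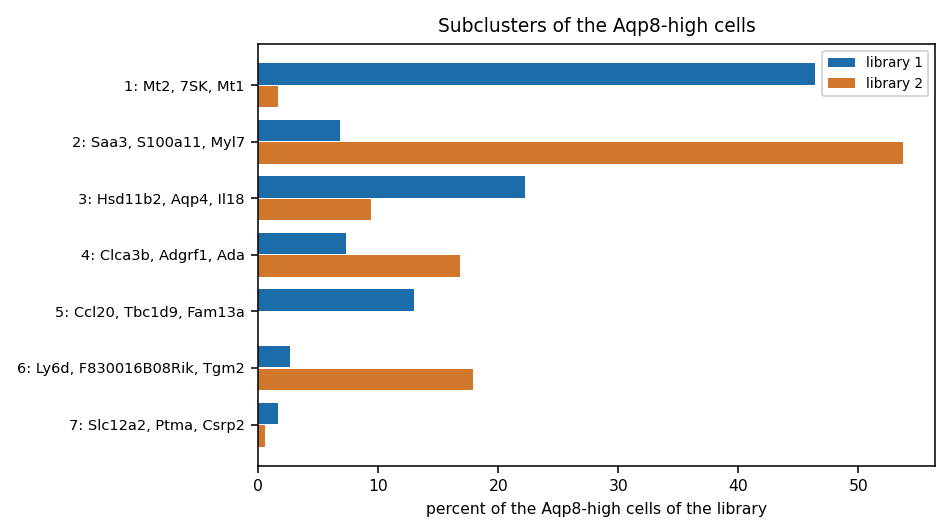
Share of the Aqp8-high cells of each library (horizontal axis, percent) in the 7 subclusters (rows, with their 3 leading genes); bars are library 1 and library 2. Subclusters 1 and 5 are made up of library 1 cells almost alone, and subcluster 2 holds 53.7% of library 2. Subclusters 2, 3, 4, 6 and 7 are found in both libraries, in unequal shares.

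Several genes named here have near-identical copies whose reads counting can split or drop: Saa1 and Saa2, the Gsdmc, Ces2, Cyp2c, Cyp2d, Clca4, Naip, Sprr2, Ly6 and class I and II H2 families, and Hspa1a and Hspa1b. No source used here says how shared reads were treated, so the split between such copies is uncertain.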

How the data were processed

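Single-cell RNA-seq was made from 2 libraries with 10x Genomics reagents; the labels name both a 3′ V3 capture kit and v2 library reagents, and which version the whole workflow used is not settled here. Reads were aligned to mm10 with Cell Ranger, named as version 8.0.0 in the submitters' processing notes and as 7.0.0 per the file headers. The authors deposited raw UMI counts per gene and barcode for cell-containing barcodes (55357 genes), with no normalisation; 52081 gene IDs matched GENCODE M21.

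Cells were gated on the deposited counts, and counts were summed per library and gate (8 sums, 3 residual degrees of freedom). edgeR 4.0.16 (R 4.3.3) fitted all 8 sums with TMM factors, filterByExpr and library as a block, since all gates of a library come from 1 tissue sample. The 3 comparisons were tested by glmQLFTest, adjusted over 14778 genes and the genes of the rule. The procedure was also run on simulated sums, with the same spread for every gene and no difference between libraries in gene levels. The real libraries did differ in some genes, so that run does not gauge the error rate here. SEs were derived from the fold change and its p. The gates use 6 genes of the same cells, so genes that vary with them can differ by that choice. The members and all gene lists were chosen with earlier results of these data known.

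Named genes were those of the lists, the 12 with the largest and the 12 with the lowest change in each comparison (at least 50 CPM in the higher gate and the same sign in both libraries), the 25 most abundant, the 5 most uneven between libraries in each direction, and 6 leading genes of each subcluster. Genes named for few or no counts outside these were chosen after their values were seen. Subclusters were found with Leiden clustering in scanpy 1.11.5 (Python 3.11.15), on the pooled cells with no batch correction. Doublets were scored with Scrublet, marking the highest scorers in proportion to the number of barcodes, and kept except in 1 alternative. DESeq2 1.42.0, other scaling, filters, gates and depth limits were tried as alternatives. Thinning to 10000 UMIs used 1 random draw. Of the 3 kinds of deposited file, the barcode and gene lists carry no measurement.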

Additional observations from a re-analysis of the deposited data

How the results depend on the processing

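With total UMIs in place of TMM factors, an alternative added after the data were seen, 1393 genes rose and 6349 fell against Aqp8-low cells, 2316 and 7011 against goblet cells, and 2836 and 8683 against dividing cells. This scaling turned the changes of Aldoa (-0.0360), Atp1b1 (-0.0710), Slc16a1 (-0.0740) and Slc5a8 (-0.101) negative, ended those of Car9, Casp1, Cd74, Gapdh, Id2, Ly6a, Nr1i2 and Tnf, and made Dmbt1, Ereg, Hbegf, Hif1a, Il18, Nlrp6, Pigr and Reg3b pass as lower. With at least 10 Krt20 UMIs in every gate, also added later, 1603 genes rose and 1159 fell against Aqp8-low cells, of 12406 tested. Under it 29 named changes did not pass. Fewer cells and genes entered that fit, with only 24 and 22 goblet cells and 22 and 38 dividing cells. The cause of the other moves was not tested. With no replicate block 2429 genes rose and 2817 fell against Aqp8-low cells, 3798 and 4143 against goblet cells, and 4785 and 5261 against dividing cells; the same numbers mark the same library, which is where the pairing comes from. Counts of genes under the other alternatives stayed within 1.5 times of those reported. DESeq2 ended the calls of Car13, Dpp4 and Ppara, leaving out Scrublet-marked cells those of Aldoa, Clu, Ly6a and Slc5a8, and a limit of 15000 UMIs those of Gcg, Insl5, Pyy and Slc5a8. The share of Aqp8-high cells among epithelial cells was 40.6% in library 1 with the mitochondrial limit at 10%, and 35.7% and 21.8% after thinning. Leaving out either library gives changes but no test. Depth limits the scarce genes: an exact 0 in a gate allows up to 3 counts.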
